A study of Homo sapiens with 22 samples.

Results

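SOX10 and 9 other transcription factors of the neural crest and melanocyte lineage were followed across the single-cell RNA and chromatin data of this series. The 10 members are SOX10, SOX9, SOX4, SOX5, PAX3, TFAP2A, TFAP2B, POU3F1, POU3F2 and FOXD3, and they were chosen by gene symbol. All 10 were found among the 33538 genes of the first single-cell table and among the 36601 genes of each of the other two tables.

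The series studied WM989 and WM983B, which are established human melanoma cell lines that had received no targeted therapy. It asked what separates drug-susceptible cells from the rare cells that are primed for resistance, and how cells pass from one state to the other. The first experiment profiled 12531 untreated WM989 cells from 8 wells of the microfluidic chip. By the study's methods its cultures were transduced with lineage barcodes and begun from either a mixed or an EGFR/NGFR-high sort, and a barcode was not found in every cell. The second profiled 1449 untreated WM983B cells in 1 library. The third experiment held barcoded WM989 cells in 4 groups with 2 libraries each. These were an Untreated group, a group given the recombinant growth factor TGFB1, a group given TGFBRi, an inhibitor of the TGF-β receptors, and a group given PI3Ki, an inhibitor of the PI3 kinase. Sample labels name 1 library of each of these 4 groups with Mix and the other with Primed. The 2 libraries of a group may therefore have started from different populations. ATAC-seq, which cuts open chromatin, was done on untreated WM989 cells sorted by antibody as EGFR-High, NGFR-High, EGFR-NGFR-High or Mix, with 3 libraries each. For the ATAC libraries the label Mix does not say how the cells were chosen. The study's methods describe the remaining sort as cells negative for both markers. The sources used here do not settle which of these it was. By the study's methods each culture of the first experiment was loaded on 2 chip wells, so that the 8 wells are not 8 cultures, and in the third experiment the cells of 1 culture well were split over the 4 treatments of a replicate. Labels of state, drug-susceptible or primed, are the authors' own and rest on clusters of the same counts.

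Neural crest cells arise at the border of the neural plate, where PAX3, TFAP2A and TFAP2B help to set their identity and FOXD3 helps to keep them as progenitors. SOX9 and SOX10 belong to the same subgroup of SOX factors, with SOX9 directing cartilage and SOX10 directing glia and melanocytes. In melanocytes SOX10 and PAX3 switch on MITF, the master regulator of pigment genes, while POU3F2, also called BRN2, is known for repressing MITF in invasive melanoma cells. SOX5 can weaken the action of SOX10 on its targets, SOX4 is a target of TGF-β signalling in several tissues, and POU3F1 is known for its role in Schwann cells.

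The 8 wells held 408 to 3841 cells with 35882876 to 177318308 unique molecular identifiers (UMIs, 1 per captured RNA molecule), and the 8 libraries of the treatment experiment held 3692 to 6273 cells with 70239657 to 122420544 UMIs. A median cell held 53571 UMIs in the first experiment, 66668 in the second and 16321 in the third. In the first experiment 12531 cells carried 12512 distinct cell barcodes, in the third 40021 cells carried 39827, and in the second none was repeated. Cells of WM989 carried the markers of the melanocyte lineage, since the summed level of 10 such genes was 5359 to 6519 CPM, the counts of a gene scaled to a fixed total of UMIs in drug-susceptible cells of the 8 wells. In primed cells that sum was 405 to 1071 CPM, and 8 of the 10 genes were more than 2-fold lower. Of 6 fibroblast markers 4 were more than 2-fold higher in primed cells, with a sum of 29.4 to 45.5 CPM in drug-susceptible and 111 to 314 in primed cells. COL1A1 was at 1.69 and 160 CPM and PDGFRA at 0.734 and 47.3 CPM, while LUM was at 32.2 and 16.9 CPM and COL3A1 was at the limit of 3 counts in drug-susceptible cells. Of 4 endothelial markers PECAM1 and VWF were higher, with a sum of 0.461 to 0.971 against 16.7 to 30.7 CPM, and the defining marker CDH5 was at the limit of 3 counts. The 5 immune markers summed to at most 1.84 CPM in a well, and of 5 keratinocyte markers KRT5, KRT14 and KRT1 were at or under that limit in both states. Glial markers summed to 779 to 1211 CPM in drug-susceptible and 542 to 806 CPM in primed cells, where S100B and CDH19 were more than 2-fold lower and MBP was higher. Mitochondrial genes took 11.5 to 16.4% of UMIs in drug-susceptible and 7.36 to 10.9% in primed cells of the wells. The part of these differences in the values below was not tested.

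Sequences upstream of the starts help to place the members whose levels or chromatin moved. The set of RefSeq starts on GRCh38.p14 used here held 9 starts for 8 of the 10 members. It held no entry for SOX10 and SOX9, so their upstream bases are not shown. The 250 bases before each start were searched on both strands for 5 short motifs. The search used a SOX core (ACAAT), a TFAP2 core (GCCNNNGGC), a SMAD box (CAGAC), a TEAD core (GGAATG) and the E-box bound by MITF (CACGTG), with overlapping matches kept. Shown are SOX4 and SOX5, the members that rose with TGFB1, and the inner of both TFAP2A starts. The window of the latter overlaps a region with a peak in all 12 ATAC libraries. So do those of SOX4, SOX5, POU3F1, PAX3 and POU3F2, of which the last 3 held no motif and are not shown. TFAP2A itself passed no test of TGFB1 against Untreated. Each sequence shown runs 5′ to 3′ on the strand of its gene and ends at the base before the start. Capitals mark the motif matches, which are the TEAD core in SOX4, 2 SOX cores in SOX5, and in TFAP2A 2 SMAD boxes, with a SOX core that directly follows the second box.
SOX4, chr6:21593501-21593750, plus strand: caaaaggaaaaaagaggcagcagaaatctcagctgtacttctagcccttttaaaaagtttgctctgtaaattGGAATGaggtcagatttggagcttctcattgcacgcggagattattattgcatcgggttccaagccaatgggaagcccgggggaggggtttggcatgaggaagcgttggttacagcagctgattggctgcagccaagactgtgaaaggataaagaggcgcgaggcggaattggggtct
SOX5, chr12:24562492-24562741, minus strand: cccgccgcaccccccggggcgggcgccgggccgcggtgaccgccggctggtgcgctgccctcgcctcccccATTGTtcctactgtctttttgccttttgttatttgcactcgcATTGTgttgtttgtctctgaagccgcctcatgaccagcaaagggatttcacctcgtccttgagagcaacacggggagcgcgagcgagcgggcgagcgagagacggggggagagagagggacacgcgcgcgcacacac
TFAP2A, chr6:10412392-10412641, minus strand: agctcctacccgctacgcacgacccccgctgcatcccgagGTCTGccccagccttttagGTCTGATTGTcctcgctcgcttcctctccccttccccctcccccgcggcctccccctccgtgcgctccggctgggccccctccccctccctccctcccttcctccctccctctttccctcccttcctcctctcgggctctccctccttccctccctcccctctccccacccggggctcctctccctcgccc
In the same windows of 35116 RefSeq starts the SOX core was present in 24.6%, the TFAP2 core in 19.8%, the SMAD box in 38.0%, the TEAD core in 11.9% and the E-box in 6.34%. A match is a description of the letters and not a site of binding. Among the other starts FOXD3 held 1 SOX core and 1 E-box, TFAP2B held 1 SOX core and 3 SMAD boxes, and POU3F1, PAX3, POU3F2 and the outer TFAP2A start held none of the 5 motifs.

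SOX10 was lower in primed than in drug-susceptible cells of WM989, by much more in the wells than in the treatment experiment. It lies on the minus strand of chromosome 22 (chr22:37970686-37987422 on hg38), inside an intron of the longer gene POLR2F, and whether the counting kept strands apart is not given in the sources used here. UMIs of all cells with the same label of state were added up, and no test was made between states because the states were called from the same counts. In the 9688 drug-susceptible cells SOX10 stood at 129.6 CPM (95% Poisson interval 128.7 to 130.6). In the 2843 primed cells it stood at 7.09 CPM (6.72 to 7.48), which is 18.3-fold lower. Such intervals cover counting error only. By well, drug-susceptible cells held 122 CPM at the lowest, 135 at the median and 140 at the highest, and primed cells held 2.71, 9.99 and 16.8. The ranges of the 8 wells did not overlap, and the fold between states ran from 7.68 to 51.6 with a median of 13.6. How many of all genes had ranges without overlap was not counted, here and for the members below. In the Untreated libraries of the treatment experiment drug-susceptible cells held 136 and 135 CPM and primed cells 70.8 and 69.6 CPM, and over all 8 libraries of that experiment SOX10 was 3.52-fold lower in primed cells. Most primed cells in that sum came from the TGFB1 libraries, so the 3.52-fold mixes treatment with state.

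Most primed cells of the WM989 wells held no SOX10 UMI. Of drug-susceptible cells 1.81% held no SOX10 UMI and 69.7% held 5 or more, with a median of 7. Of primed cells 82.8% held none and 3.27% held 5 or more. Both states were sequenced to a like depth, with a median of 52835 UMIs per drug-susceptible and 58253 per primed cell. After thinning every cell to 10000 UMIs, SOX10 remained visible in 70.2% of the former and 5.42% of the latter, against 98.2% and 17.2% without thinning. A share this low can include free RNA in the droplets, and these cells of 1 line hold no type that should lack SOX10 in which to measure it. Primed cells of the Untreated libraries in the treatment experiment held a SOX10 UMI more often, in 50.2% of 259 cells against 89.1% of drug-susceptible cells. After thinning to 5000 UMIs, which left 255 of 259 primed and 7582 of 7585 drug-susceptible cells, these were 24.3% and 48.5%. Cells of that experiment were shallower than in the wells, with a median of 11211 UMIs in primed and 16825 in drug-susceptible cells.

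**Figure D1:**
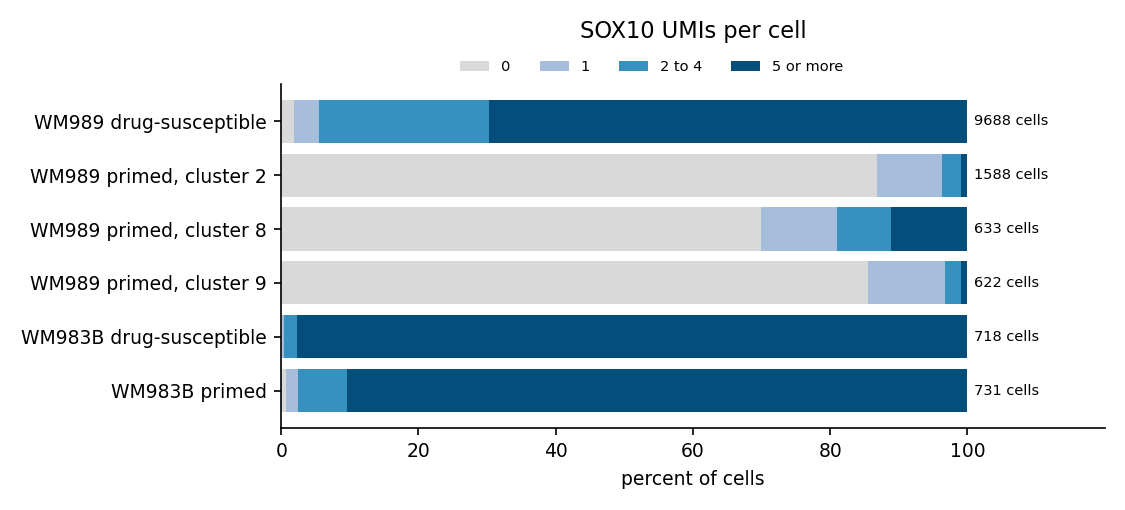
Percent of cells (horizontal axis) with 0, 1, 2 to 4 and 5 or more SOX10 UMIs, for drug-susceptible cells and each primed cluster of WM989 and for both states of WM983B. The WM989 primed bars are mostly cells without a SOX10 UMI (86.8% in cluster 2, 70.0% in cluster 8, 85.5% in cluster 9), while in WM983B 97.8% of drug-susceptible and 90.4% of primed cells hold 5 or more.

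The 3 clusters that the authors call primed were not alike in SOX10. Cluster 2 with 1588 cells stood at 3.35 CPM, cluster 9 with 622 cells at 3.03 CPM and cluster 8 with 633 cells at 27.1 CPM. In cluster 8, 11.2% of cells held 5 or more SOX10 UMIs, against 1.01% in cluster 2 and 0.965% in cluster 9. All 8 drug-susceptible clusters lay between 119 and 145 CPM. Wells 3, 4, 7 and 8, whose primed cells were mostly in cluster 8, had primed levels of 16.8, 14.1, 15.2 and 10.8 CPM. Wells 1, 2, 5 and 6, whose primed cells were mostly in cluster 2, had 3.62, 9.16, 2.71 and 3.67 CPM. The level in well 2 lay close to that in well 8, and the labels used here give no sort for a well. In wells 1, 2, 5 and 6 primed cells were 256 of 450, 1059 of 1698, 325 of 408 and 447 of 581. In wells 3, 4, 7 and 8 they were 126 of 1601, 263 of 3841, 196 of 2137 and 171 of 1815. Sums over wells thus draw primed cells mostly from the former and drug-susceptible cells mostly from the latter. The part of this make-up, or of free RNA, in the primed levels was not tested. Cells of cluster 8 were also shallower, with a median of 38061 UMIs against 62895 in cluster 2.

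SOX9 (chr17:72121020-72126416) was seen almost only in primed cells of the wells. Its 938 UMIs in primed cells gave 4.88 CPM (4.57 to 5.20), and its 6 UMIs in drug-susceptible cells gave 0.0107 CPM (0.00394 to 0.0234). Primed cells of every well held SOX9, with 2.08 CPM at the lowest, 3.85 at the median and 6.94 at the highest, and drug-susceptible cells held at most 0.0971 CPM in a well. That level was not seen again in the treatment experiment, where primed cells held 12 SOX9 UMIs, 0.230 CPM, and drug-susceptible cells 1 UMI. Its Untreated primed cells of cluster 10 held 2 UMIs, 0.551 CPM (0.0667 to 1.99), below the lowest well. Within the primed cells the level was 8.84 CPM in cluster 9, 4.1 in cluster 2 and 1.52 in cluster 8. By the authors' cell cycle call it was 11.1 CPM in G2M, 3.90 in G1 and 1.38 in S. Cluster 9 is also the cycling primed cluster, with 62.9% of its cells called G2M, 25.7% S and 11.4% G1, against 1.2% G2M in cluster 2.

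SOX9 and SOX10 were rarely seen in the same primed cell, where each gene on its own was also rare. Of the 434 primed cells with a SOX9 UMI 57 also held SOX10, which is 13.1%, against 17.9% of primed cells without SOX9. SOX10 stood at 4.41 CPM in the former and 7.72 CPM in the latter, although the former were deeper, with a median of 79092 against 55214 UMIs. Within clusters the order was not the same throughout. In cluster 8, 41.9% of the 31 cells with SOX9 held SOX10, against 29.4% of the others, while in cluster 9 it was 9.94% against 16.1%. The 6 drug-susceptible cells with SOX9 all held SOX10.

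**Figure D2:**
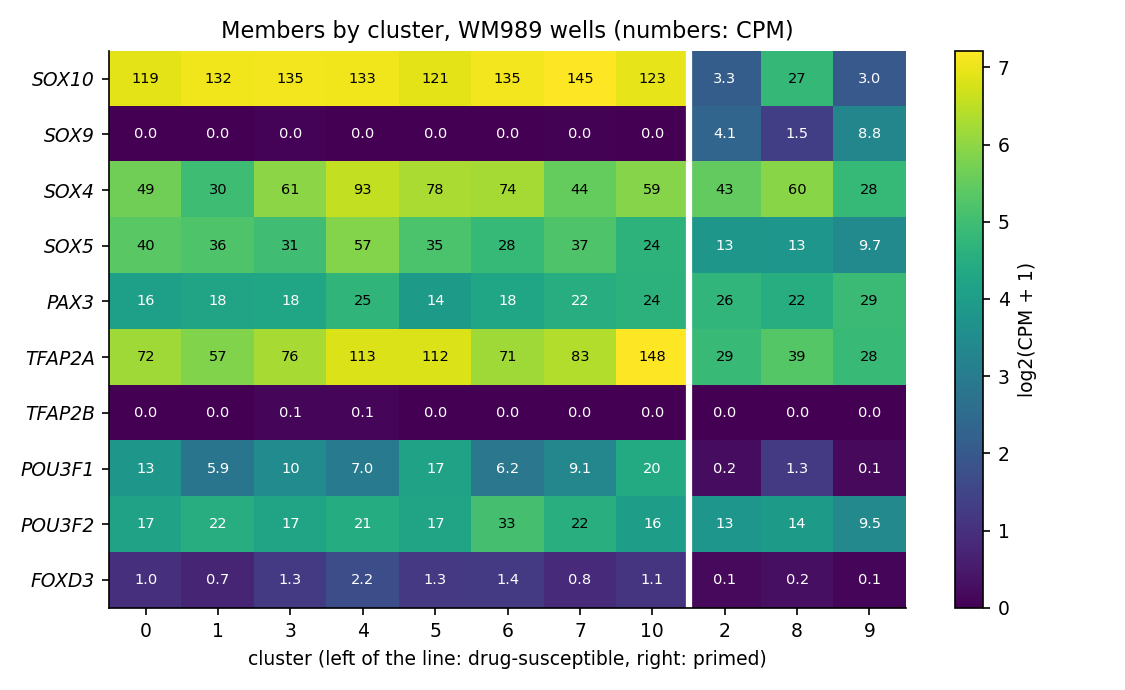
Level of each member (rows) in the 11 clusters of the WM989 wells (columns), coloured by log2(CPM + 1) with the CPM printed in each cell and drug-susceptible clusters left of the white line. SOX10 is between 119 and 145 CPM on the left and at 3.35, 27.1 and 3.03 CPM on the right, and SOX9 is above 1 CPM only on the right.

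SOX4 and SOX5 differed in how far they followed SOX10 across the states. SOX5 (chr12:23529504-24562544, minus strand) stood at 37.6 CPM in drug-susceptible and 12.3 CPM in primed cells, 3.06-fold lower. Its wells held 34.5, 37.3 and 51.9 CPM (lowest, median and highest) against 7.61, 11.1 and 14.2 CPM, with no overlap. SOX4 (chr6:21593751-21598619), which is also a neural crest gene, stood at 55.8 and 42.1 CPM. Its wells held 53.6, 55.9 and 65.8 CPM in drug-susceptible and 33.5, 48.8 and 58.7 CPM in primed cells. These ranges overlapped, and primed cells were lower in 6 of 8 wells. SOX4 varied more among drug-susceptible clusters, from 30.1 CPM in cluster 1 to 93.4 CPM in cluster 4, and was 81.4 CPM in G1 against 45.6 CPM in S.

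PAX3 (chr2:222199887-222298998, minus strand), an activator of MITF, was the member other than SOX9 that was higher in primed cells. It stood at 18.4 CPM in drug-susceptible and 25.9 CPM in primed cells. Wells held 16.4, 19.6 and 20.7 CPM against 20.4, 25.6 and 30.1 CPM, and no well had a lower level in its primed cells, although the ranges met. The difference was below 2-fold in every well.

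TFAP2A (chr6:10393186-10419659, minus strand), an activator of neural crest and pigment genes, stood at 81.9 CPM in drug-susceptible and 30.2 CPM in primed cells, 2.71-fold lower. Wells held 63.9, 91.4 and 149 CPM against 26.6, 31.1 and 39.6 CPM, with no overlap. Among drug-susceptible clusters it reached 148 CPM in cluster 10, 113 in cluster 4 and 112 in cluster 5, and was lowest in cluster 1 at 57.0 CPM. TFAP2A has an antisense partner, TFAP2A-AS1, and their reads could not be told apart if strands were not kept. TFAP2B (chr6:50818723-50847619), its close paralogue, was near the floor, with 10 UMIs in drug-susceptible cells and 0 in primed cells, where 0 allows up to 0.0156 CPM (3 counts).

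The POU factors and FOXD3 were lower in primed cells to very different degrees. POU3F1 (chr1:38043829-38046793, minus strand) stood at 10.3 CPM in drug-susceptible cells and, from 69 UMIs, at 0.359 CPM (0.279 to 0.454) in primed cells, 28.6-fold lower. Its wells held 5.15, 7.22 and 13.7 CPM against 0.0680, 0.405 and 1.23 CPM, and the fold between states ran from 7.31 to 83.4 with a median of 14.2. Cluster 8 again held more than the other primed clusters, with 1.32 CPM against 0.187 in cluster 2 and 0.144 in cluster 9. POU3F2 (chr6:98834574-98839458), the repressor of MITF named above, stood at 20.1 and 12.2 CPM, and its wells held 14.5, 20.4 and 29.6 CPM against 9.73, 11.6 and 22.9 CPM. It was lower in primed cells of all 8 wells, but the ranges overlapped. FOXD3 (chr1:63322567-63325128) was a rare transcript, at 1.14 CPM in drug-susceptible cells and, from 26 UMIs, 0.135 CPM (0.0884 to 0.198) in primed cells, 8.46-fold lower. By well its fold was 2.32 at the lowest and 4.49 at the median, from at most 9 UMIs in the primed cells of a well, with 2 wells at 0 UMIs set to the floor of 3 counts. It shares its place with the antisense gene FOXD3-AS1, with the same limit on strands.

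**Figure D3:**
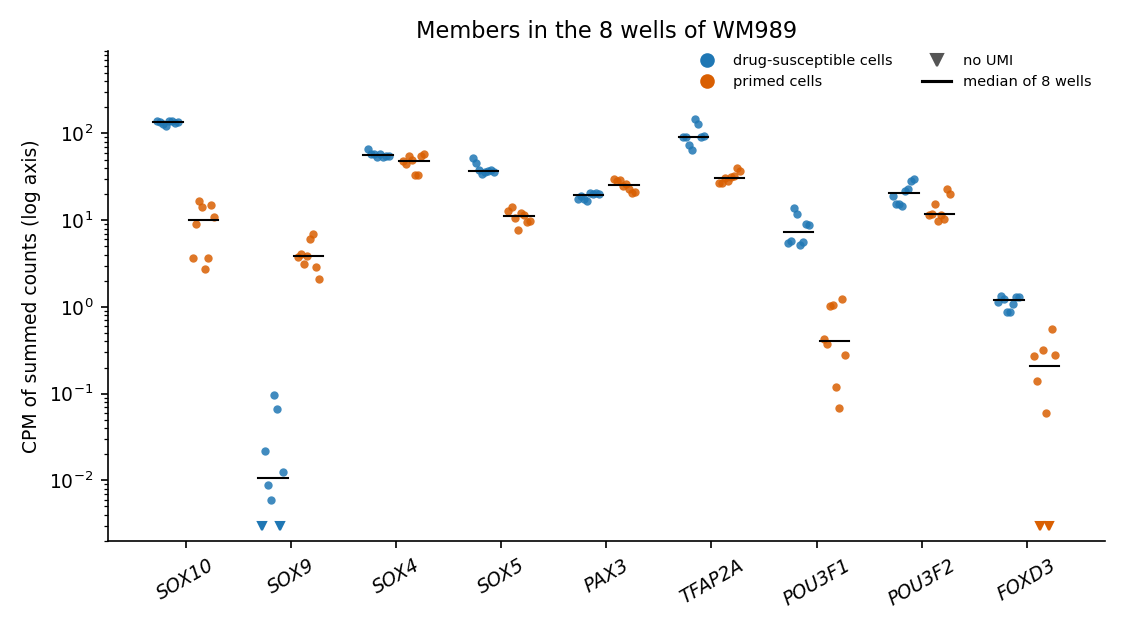
CPM of 9 members on a log axis in drug-susceptible (blue) and primed (orange) cells of each of the 8 WM989 wells, with a line at the median of 8 and triangles for wells without a UMI. SOX10, SOX5, TFAP2A, POU3F1 and FOXD3 lie lower and SOX9 higher in primed cells with no overlap, while SOX4, PAX3 and POU3F2 overlap. The share of all genes without overlap was not counted.

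Over the whole list, 6 of the 9 members with at least 1 CPM in a state differed by more than 2-fold. SOX9 was higher in primed cells, and SOX10, SOX5, TFAP2A, POU3F1 and FOXD3 were lower. Among all 13194 genes at that level 21.6% passed 2-fold, 13.7% as higher and 7.91% as lower. With a stricter floor of 20 CPM it was 3 of 6 members, namely SOX10, SOX5 and TFAP2A, and 16.9% of 6316 genes. Without cluster 8 the same 6 members passed, against 22.6% of genes. With r2 wells alone POU3F2 passed as well, against 21.3% of genes.

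The genes whose level across the 11 clusters was most like that of SOX10 were MLANA, a melanosome antigen, FXYD3, a regulator of the sodium pump, HPGD, which breaks down prostaglandins, MYO1D, an unconventional myosin, and the transcript AL590235.2. Their Pearson's r with SOX10 on log2(CPM + 1) was 0.996, 0.996, 0.995, 0.993 and 0.993. For SOX9 they were PDLIM7 (0.983), ITGB1 (0.982), the β1 integrin, and DCBLD1 (0.981). These are descriptions over 11 clusters of the same libraries, among 7014 genes. Of the other members POU3F1 had an r of 0.916 with SOX10, SOX5 0.874, TFAP2A 0.853, PAX3 -0.65 and SOX9 -0.98.

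Genes known to depend on SOX10 in melanocytes and glia were lower in primed cells too. Of 14 such genes 13 reached 1 CPM, 12 were more than 2-fold lower and none was higher, with a median log2 ratio of -3.50 against 0.07 over all genes. MITF stood at 313 and 45.7 CPM, DCT, an enzyme of pigment synthesis, at 517 and 19.2 CPM, and ERBB3, the neuregulin receptor, at 84.5 and 7.48 CPM. TYRP1 was the 1 of 13 that did not pass, at 2.31 and 1.77 CPM. Of 10 genes that SOX9 drives in cartilage 4 reached 1 CPM. None of these was higher and 3 were lower, among them SOX6 at 72.9 and 5.26 CPM. Their classic member COL2A1 stood at 0.242 and 0.0677 CPM.

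Other regulators of the neural crest went both ways. Of 22 at 1 CPM or more, 6 were more than 2-fold higher and 6 lower, with a median log2 ratio of 0.55. TFAP2C, the paralogue of TFAP2A, stood at 8.07 and 44.3 CPM, NR2F1 at 1.38 and 33.8 CPM, and FOXC2, a forkhead factor, at 0.0770 and 10.9 CPM. On the lower side the retinoid receptor RXRG stood at 20.1 and 1.34 CPM and MYC at 173 and 43.2 CPM. Of 9 paralogues of the members at that level 3 were higher, namely TFAP2C, FOXD1 and PAX8, and 2 were lower, namely SOX6 and POU4F1.

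In WM983B the same labels of state went with much smaller differences in the members. There were 718 drug-susceptible and 731 primed cells in 1 library, with no replicate. SOX10 stood at 208 CPM (204 to 212) in drug-susceptible and 192 CPM (188 to 195) in primed cells, and was seen in 99.9% and 99.3% of cells. SOX9 had 3 UMIs in each state and TFAP2B none, which allows up to 0.0557 and 0.0614 CPM. Of the 8 members at 1 CPM or more only POU3F1 passed 2-fold, at 7.23 and 1.76 CPM, 4.11-fold lower, and among 13769 genes 4.24% passed, 2.87% as higher and 1.37% as lower. With the floor of 20 CPM 0 of 7 members passed, and 1.98% of genes. FOXD3 stood at 14.6 and 28.8 CPM, 1.97-fold higher, and TFAP2A at 109 and 68.0 CPM, 1.60-fold lower. SOX5 at 40.9 and 55.9 CPM and POU3F2 at 22.04 and 29.4 CPM were higher in primed cells, while PAX3 stood at 22.2 and 26.1 CPM and SOX4 at 94.8 and 85.9 CPM.

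FOXD3, SOX5 and POU3F2 were higher in primed WM983B cells and lower in the primed cells of each of the 8 WM989 wells, a difference that was not tested. For POU3F2 it did not hold between the lines throughout. In the Untreated WM989 libraries of the treatment experiment POU3F2 stood at 24.5 and 22.4 CPM in drug-susceptible and 26.8 and 23.3 CPM in primed cells. FOXD3 stood at 0.223 CPM in the drug-susceptible and, from 19 UMIs, at 0.365 CPM (0.220 to 0.570) in the primed cells of all 8 libraries of that experiment. That interval includes the drug-susceptible level, and most of these primed cells came from the TGFB1 libraries. FOXD3 therefore does not settle this for untreated cells. SOX5 was lower in primed cells there too, at 41.6 and 40.2 CPM against 37.3 and 33.4 CPM in the Untreated libraries. Among the genes that depend on SOX10, 4 of 13 were more than 2-fold lower in primed WM983B cells, namely DCT, TYRP1, PMEL and MLANA. MITF stood at 392 and 197 CPM, ERBB3 at 139 and 170 CPM and S100B, a glial marker, at 771 and 1039 CPM. Fibroblast markers summed to 102 and 86.1 CPM, and the melanocyte markers to 3083 and 2081 CPM. Of other regulators 1 was higher (NR2F1) and 1 lower (SNAI2) of 20, and of paralogues 1 of 13 was higher (FOXD1). None of 3 cartilage genes passed.

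The treatment experiment allowed tests over libraries. For each library the UMIs of its cells were added up and tested with edgeR's quasi-likelihood test, with treatment and replicate as terms and p-values adjusted over all genes by the method of Benjamini and Hochberg. All 3 treatments were compared with the same 2 Untreated libraries, named r1 and r2, so these comparisons are not independent. In each group values are given as r1 and r2. The sample labels name 1 library of each group with Mix and the other with Primed, while the cell annotation names them r1 and r2, and the link between these names was not settled. The 2 libraries of a group may therefore have started from different populations, and p-values measure only the spread between these libraries. SOX9 had 13 UMIs and TFAP2B 1 UMI in the whole experiment, so both were left out by the filter on low counts. FOXD3 passed that filter only in drug-susceptible cells, at 0.142 to 0.346 CPM, and in all cells, at 0.141 to 0.351 CPM, where its standard errors were 0.391 to 0.436 on the log2 scale and no change passed.

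The number of cells with the primed label differed between libraries, and these counts were not tested. Primed cells numbered 94 of 4152 and 165 of 3692 in the Untreated libraries and 1577 of 5419 and 1757 of 5615 with TGFB1. They numbered 118 of 5229 and 271 of 6273 with TGFBRi and 25 of 3862 and 70 of 5779 with PI3Ki. Summed over all cells of a library, 4 of 8 members tested changed with TGFB1, while 29.0% of all genes did. SOX4 rose by 0.86 ± 0.075 on the log2 scale (SE, n = 2 libraries a group, adjusted p = 6.36e-09) and SOX5 by 0.40 ± 0.063 (3.52e-05). POU3F1 fell by 0.78 ± 0.071 (1.12e-08) and POU3F2 fell by 0.25 ± 0.071 (0.00899). The call of POU3F2 ended without the replicate block (adjusted p = 0.0514), without TGFB1 r1 (0.216) and without Untreated r1 (0.183). The log2 change of SOX10 was -0.17 ± 0.066 (adjusted p = 0.0642), and it was called lower when either TGFBRi library was left out. With TGFBRi 1 of 8 members changed, TFAP2A, against 2.53% of genes, and with PI3Ki 3 of 8 changed, POU3F1, POU3F2 and SOX5, against 12.7%. Without the replicate block POU3F2 with PI3Ki was the 1 of these 4 calls that passed. Since such sums mix states, each state was then tested on its own.

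Within the drug-susceptible cells of the TGFB1 libraries SOX4 and SOX5 rose and POU3F1 and POU3F2 fell, which makes 4 of 8 members, and 14.9% of all genes changed. SOX5 stood at 41.6 and 40.2 CPM Untreated and at 65.4 and 63.0 CPM with TGFB1. Both TGFB1 libraries were above both Untreated ones, and the log2 change was 0.64 ± 0.064 (adjusted p = 9.90e-08). SOX4 stood at 56.7 and 46.6 CPM Untreated and at 87.2 and 69.6 CPM with TGFB1. The log2 change was 0.59 ± 0.076 (adjusted p = 4.66e-06).

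Drug-susceptible cells of the TGFB1 and Untreated libraries were unevenly spread over clusters, and cluster 3 held 3801 TGFB1 cells and 115 Untreated cells. SOX4 stood at 114 CPM in the TGFB1 cells of that cluster and at 82.5 CPM in its Untreated cells, and SOX5 at 81.8 and 45.2 CPM. Without cluster 3 the log2 change was 0.02 for SOX4, which no longer passed, and 0.31 for SOX5, which still did. Leaving out that cluster removes cells almost wholly from 1 treatment, so these values are a description only.

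POU3F1 in drug-susceptible cells stood at 33.8 and 24.0 CPM Untreated and at 22.3 and 17.8 CPM with TGFB1, with r1 above r2 in both groups. It fell by 0.53 ± 0.070 (adjusted p = 5.80e-06) with replicate in the model, and without the replicate block the adjusted p was 0.179. POU3F2 stood at 24.5 and 22.4 CPM Untreated and at 19.6 and 20.3 CPM with TGFB1, and fell by 0.24 ± 0.070 (adjusted p = 0.0193, and 0.116 without the block). Leaving out TGFB1 r1 or either Untreated library, or cells outside G1, ended that call. SOX10 stood at 136 and 135 CPM Untreated and at 146 and 157 CPM with TGFB1, a log2 change of 0.14 ± 0.068 (adjusted p = 0.173, and 0.0451 in G1 cells alone, with a change of 0.21). PAX3, TFAP2A and FOXD3 did not pass the test either.

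Within primed cells TGFB1 went with a lower level of SOX10. The Untreated libraries held 70.8 and 69.6 CPM and the TGFB1 libraries 31.6 and 32.9 CPM, so that both TGFB1 libraries were below both Untreated ones. SOX10 fell by 1.04 ± 0.144 on the log2 scale (adjusted p = 4.58e-07), and it did so under every alternative tried, with log2 changes from -1.09 to -0.94. None of these alternatives held the cluster of the primed cells fixed. SOX4, at 69.3 and 57.1 CPM Untreated and 160 and 128 CPM with TGFB1, rose by 1.27 ± 0.142 (adjusted p = 4.23e-09). PAX3, at 25.3 and 25.4 CPM Untreated and 14.6 and 14.8 CPM with TGFB1, fell by 0.70 ± 0.196 (adjusted p = 0.0106). DESeq2 gave PAX3 an adjusted p of 0.119, and leaving out any 1 of its 4 libraries gave 0.0851 to 0.209. These were 3 of 7 members tested, while 13.3% of genes changed.

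The primed cells of the groups came from different clusters. Of primed TGFB1 cells 3254 were in cluster 4, where SOX10 stood at 29.95 CPM, and 80 in cluster 10, where it stood at 133 CPM from 129 UMIs. Of primed Untreated cells 248 were in cluster 10 at 71.9 CPM and 11 in cluster 4 at 35.9 CPM from 7 UMIs. Cluster 10 with TGFBRi and PI3Ki stood at 75.3 and 69.4 CPM. Within cluster 10 SOX10 was thus higher with TGFB1 (111 to 158) than Untreated (63.4 to 81.1), opposite to the fall over all primed cells. In cluster 4 the Untreated interval of 14.5 to 74.1 CPM includes the TGFB1 level.

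**Figure D4:**
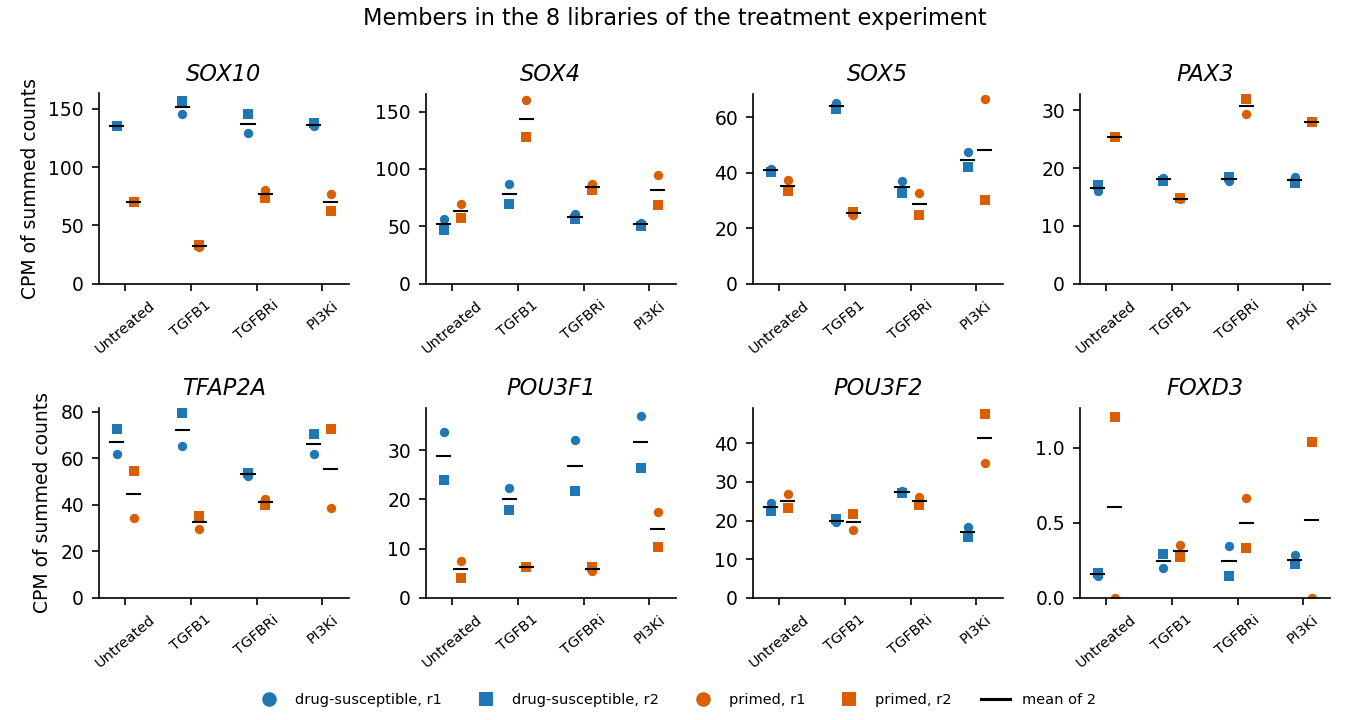
CPM of 8 members in drug-susceptible (blue) and primed (orange) cells of the 8 libraries of the treatment experiment, with circles for r1, squares for r2 and a line at the mean of 2. With TGFB1 the orange points of SOX10 lie at 31.6 and 32.9 CPM, below the 70.8 and 69.6 CPM of Untreated, and those of SOX4 at 160 and 128 CPM, above 69.3 and 57.1 CPM.

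The difference between states in the response to TGFB1 was tested as an interaction of state and treatment over the 16 sums of 8 libraries and 2 states, a test chosen after the values were seen. It passed for 5 of 8 members and for 9.98% of genes. The log2 response in primed cells minus that in drug-susceptible cells was -1.11 ± 0.134 for SOX10 (adjusted p = 2.96e-14), -0.94 ± 0.167 for SOX5 (1.01e-06) and 0.76 ± 0.123 for SOX4 (4.73e-08). It was -0.73 ± 0.191 for PAX3 (0.00264) and -0.44 ± 0.146 for TFAP2A (0.0302). SOX5 rose in drug-susceptible cells, whereas in primed cells it was at 37.3 and 33.4 CPM Untreated and 24.9 and 25.8 CPM with TGFB1 (log2 change -0.39 ± 0.178, adjusted p = 0.157). Primed TGFB1 cells were mostly in cluster 4 and primed Untreated cells mostly in cluster 10, which this test did not hold fixed. Within cluster 10 SOX5 was higher with TGFB1, at 64.8 CPM (49.8 to 82.9) against 35.8 CPM (29.9 to 42.5) Untreated. In cluster 4 it stood at 24.4 CPM with TGFB1 and, from 3 UMIs, at 15.4 CPM Untreated.

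Genes that depend on SOX10 did not share 1 direction across the states with TGFB1. In primed cells 9 of 11 tested fell and none rose, with a median log2 change of -1.03. S100B fell by 1.60 ± 0.12 (adjusted p = 1.67e-13) and MITF fell by 0.91 ± 0.13 (1.40e-06). In drug-susceptible cells 6 of 13 rose, among them ERBB3 by 0.63 ± 0.066 (1.99e-07), and 2 fell, MLANA and DCT, with a median of 0.25. Of other regulators of the neural crest 3 of 21 rose and 4 fell in drug-susceptible cells, and 4 of 19 rose and 8 fell in primed cells. NR2F1 rose in both, by 1.99 ± 0.19 (5.09e-08) and 2.099 ± 0.19 (1.21e-11). Of paralogues 3 of 12 fell in drug-susceptible cells, namely SOX6, SOX12 and SOX13, and in primed cells SOX6 and TFAP2C fell and POU2F1 rose of 6. The cartilage gene tested in primed cells, SOX6, fell by 1.60 ± 0.18 (8.27e-09), and of 7 tested in drug-susceptible cells SOX6 alone fell. Of the fibroblast markers 2 of 5 tested in drug-susceptible cells rose with TGFB1, COL1A1 by 3.29 ± 0.23 and PDGFRB by 1.13 ± 0.18. In primed cells 2 of 4 tested rose, COL1A1 by 1.95 ± 0.16 and PDGFRB by 2.27 ± 0.20, and DCN fell by 2.04 ± 0.51 (adjusted p = 0.00330). Their part in these values was not tested.

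TGFBRi, which blocks the receptors of TGFB1, changed 1 of 8 members in drug-susceptible cells, where 2.81% of genes changed. TFAP2A stood at 61.9 and 72.7 CPM Untreated and at 52.5 and 53.7 CPM with TGFBRi, so that both treated libraries were the lower ones. It fell by 0.32 ± 0.067 (adjusted p = 0.00706), and without the replicate block the adjusted p was 0.304. Leaving out TGFBRi r2 or Untreated r2 also ended the call. POU3F2 (log2 change 0.24 ± 0.068, adjusted p = 0.0531) and SOX5 (-0.22 ± 0.065, adjusted p = 0.0750) missed the threshold. In primed cells 0 of 7 members passed edgeR's test and 0 passed DESeq2's, and 0.375% of genes passed edgeR's. At an unadjusted p under 0.05 it was 1 of 7 members, SOX4, and 944 of all 10930 genes. ID3, a target of BMP and TGF-β signals, fell by 3.02 ± 0.091 in drug-susceptible cells (adjusted p = 1.68e-16). Of other regulators 3 of 21 rose and 3 fell there, and ERBB3, which depends on SOX10, fell by 0.41 ± 0.067 (adjusted p = 5.82e-04).

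PI3Ki changed 3 of 8 members in drug-susceptible cells, where 12.1% of genes changed. POU3F2 stood at 24.5 and 22.4 CPM Untreated and at 18.2 and 15.8 CPM with PI3Ki, and fell by 0.37 ± 0.069 (adjusted p = 8.68e-04). POU3F1, at 33.8 and 24.0 CPM Untreated and 37.1 and 26.5 CPM with PI3Ki, rose by 0.24 ± 0.067 (adjusted p = 0.0217, and 0.639 without the replicate block). SOX5, at 41.6 and 40.2 CPM Untreated and 47.4 and 42.1 CPM with PI3Ki, rose by 0.23 ± 0.064 (adjusted p = 0.0214, and 0.196 without the block). For both, leaving out any 1 of the 4 libraries compared ended the call, and for POU3F2 leaving out PI3Ki r2 did. In G1 cells alone the log2 changes of POU3F1 and POU3F2 were 0.12 and -0.15 and no longer passed, and PAX3 passed with 0.29 (adjusted p = 0.0404).

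SOX10 itself stood at 135 and 138 CPM with PI3Ki (adjusted p = 0.359), while 9 of 13 genes that depend on it rose and 1 fell. PMEL, the fibril protein of melanosomes, rose by 0.59 ± 0.081 (adjusted p = 2.55e-05) and DCT fell by 0.59 ± 0.069 (2.99e-06). In primed cells, of which the PI3Ki libraries held 25 and 70, 0 of 7 members passed edgeR's or DESeq2's test, and 1.78% of genes passed edgeR's. At an unadjusted p under 0.05 it was 2 of 7 members and 1223 of all 10930 genes. POU3F2 stood there at 35.0 and 47.7 CPM against 26.8 and 23.3 CPM Untreated (log2 change 0.79 ± 0.275, adjusted p = 0.172). Its response differed between states by 1.2 ± 0.277 (adjusted p = 0.00281), with 1.21% of genes passing that test. Of genes that depend on SOX10 6 of 11 rose in primed cells with PI3Ki, among them DCT by 2.07 ± 0.19 (8.65e-10). With PI3Ki 4 of 21 other regulators rose and 3 fell in drug-susceptible cells.

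The ATAC libraries were used to describe open chromatin near the members. Regions were made by merging the peaks of the 12 ATAC libraries, and each library's value is the fold enrichment of the strongest peak in the region over its local background. Of 151848 regions with a peak in at least 3 libraries 96 reached within 50 kb of a member's start, and 56 of them, 58.3%, had a peak in all 12 libraries, against 51.5% of all these regions. A region lay over the start in all 12 libraries for SOX4, SOX5, PAX3, POU3F1 and POU3F2. At SOX10 the nearest region, chr22:37984158-37987411, ended a few bases inside the gene's start. Its enrichment was 29.3 ± 6.02 in Mix, 27.5 ± 0.988 in EGFR-High, 26.1 ± 3.15 in NGFR-High and 27.4 ± 0.822 in EGFR-NGFR-High (SD, n = 3), and the marker-high sorts did not pass the test against Mix (limma, adjusted p = 0.820). SOX9, with 3 regions, and TFAP2B, with 4, had none in all 12 libraries, and the largest mean enrichment among the SOX9 regions was 7.73.

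The marker-high sorts were compared with Mix by limma on the log2 enrichment, each library centred on its median. Of the 56 regions near members 7 passed, which is 12.5%, against 15.9% of all 78211 regions tested. In such bulk samples fewer cells with open chromatin and less opening per cell cannot be told apart. When replicate 1 or replicate 2 of every sort was left out, 1 region near a member passed, the one upstream of POU3F2, and over all 78211 regions 4086 and 5096 passed in place of 12464. The region with the smallest p lay upstream of POU3F2, between genes at chr6:98808308-98809184, with its summit 25865 bases before the start. Its enrichment was 9.86, 9.43 and 9.68 in the 3 Mix libraries, 19.2, 16.5 and 14.2 in EGFR-High, 21.1, 19.7 and 18.3 in NGFR-High and 19.6, 17.5 and 19.8 in EGFR-NGFR-High. Every marker-high library was above every Mix library, with a log2 difference of 0.97 ± 0.124 (adjusted p = 2.14e-04). The start of POU3F2 itself, at 42.5 ± 3.78 in Mix and 45.9 to 52.2 in the other sorts (adjusted p = 0.279), did not pass. The bases around the summit of the upstream region held none of the 5 motifs and are shown because this region carried the clearest chromatin difference near a member.
POU3F2 upstream, chr6:98808609-98808809, plus strand: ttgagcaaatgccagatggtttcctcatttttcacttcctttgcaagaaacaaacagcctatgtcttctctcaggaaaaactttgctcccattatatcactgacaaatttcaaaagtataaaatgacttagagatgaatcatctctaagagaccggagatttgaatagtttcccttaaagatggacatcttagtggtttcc
Among the windows of the same length at all 78211 regions, the SOX core was present in 31.1%, the TFAP2 core in 10.7%, the SMAD box in 38.0%, the TEAD core in 14.8% and the E-box in 4.03%.

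POU3F1 had regions that differed in both directions. Downstream of it, between genes at chr1:38026058-38032077, enrichment was 73.2 ± 3.13 in Mix against 46.7 ± 3.76 in EGFR-High, 55.3 ± 5.27 in NGFR-High and 49.9 ± 5.56 in EGFR-NGFR-High. All marker-high libraries were below all Mix libraries, with a log2 difference of -0.50 ± 0.115 (adjusted p = 0.00942). Its summit window, shown because it is the clearest region with less enrichment in the marker-high sorts, held 1 TFAP2 core, in capitals.
POU3F1 downstream, chr1:38030992-38031192, plus strand: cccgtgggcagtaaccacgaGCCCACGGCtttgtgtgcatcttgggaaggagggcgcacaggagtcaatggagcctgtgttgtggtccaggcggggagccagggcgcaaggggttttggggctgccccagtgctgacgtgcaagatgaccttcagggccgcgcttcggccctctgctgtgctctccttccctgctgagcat
A second downstream region at chr1:38037216-38038136 was also lower (-0.65 ± 0.173, adjusted p = 0.0202). Another, in an intron of FHL3 at chr1:37999347-38001146, was higher (0.48 ± 0.123, adjusted p = 0.0161), and these 2 were named after their values were seen. The region over the start of POU3F1 had a log2 difference of -0.16 ± 0.133 (adjusted p = 0.471).

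Upstream of SOX10, in an intron of POLR2F at chr22:37998247-37999153 and 11306 bases before the start, enrichment was 25.5 ± 4.12 in Mix, 26.4 ± 1.55 in EGFR-High, 39.5 ± 3.67 in NGFR-High and 36.5 ± 5.33 in EGFR-NGFR-High. The log2 difference of the marker-high sorts from Mix was 0.45 ± 0.128 (adjusted p = 0.0288), with the NGFR-positive sorts above Mix and EGFR-High within its range. That call ended with enrichment that was not centred (adjusted p = 0.0667) and without replicate 1, 2 or 3 of every sort (adjusted p = 0.392, 0.0544 and 0.110), where the log2 difference was 0.25 to 0.62. EGFR-High and NGFR-High did not pass the test of their difference at this region (adjusted p = 0.306). A region upstream of TFAP2A in an intron of MIR5689HG, at chr6:10440943-10441668, stood at 15.4 ± 1.34 in Mix, 16.6 ± 2.003, 24.8 ± 0.966 and 23.4 ± 4.06 (0.50 ± 0.111, adjusted p = 0.00769). One upstream of PAX3, at chr2:222318001-222320359, stood at 20.4 ± 2.97 in Mix and at 24.8 ± 2.99, 29.1 ± 1.57 and 28.2 ± 1.09 (0.47 ± 0.119, adjusted p = 0.0160). Leaving out any 1 replicate also ended the calls of the TFAP2A region (adjusted p = 0.0515 to 0.145) and the PAX3 region (adjusted p = 0.0650 to 0.238). The best region of SOX5, an intron at chr12:24557294-24557922, missed the threshold (0.64 ± 0.228, adjusted p = 0.0728). Between EGFR-High and NGFR-High 0 of 56 regions passed limma's test while 0.69% of all regions passed. At an unadjusted p under 0.05 it was 8 of the 56, and 10986 of all 78211 regions.

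A few regions had a peak in the marker-high sorts and none in Mix. These were 6 of the 96, 1 near SOX10, 1 near SOX4, 2 near SOX5 and 2 near POU3F2, and none had peaks in Mix alone. That is 6.25%, against 13.3% of all 151848 regions with such peaks and 0.194% with peaks in Mix alone. With 9 marker-high libraries against 3 of Mix, and a peak needed in at least 3 libraries, regions without Mix are the likelier kind. The region 3080 bases before the start of SOX5, at chr12:24565287-24565815, had a peak in all 9 marker-high libraries, with mean enrichments of 9.42 in EGFR-High, 6.80 in NGFR-High and 8.0 in EGFR-NGFR-High. The one 10859 bases before SOX4, at chr6:21582683-21583105, had a peak in 7 of them. A missing peak says only that the caller's threshold was not met, so no test was made.

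**Figure D5:**
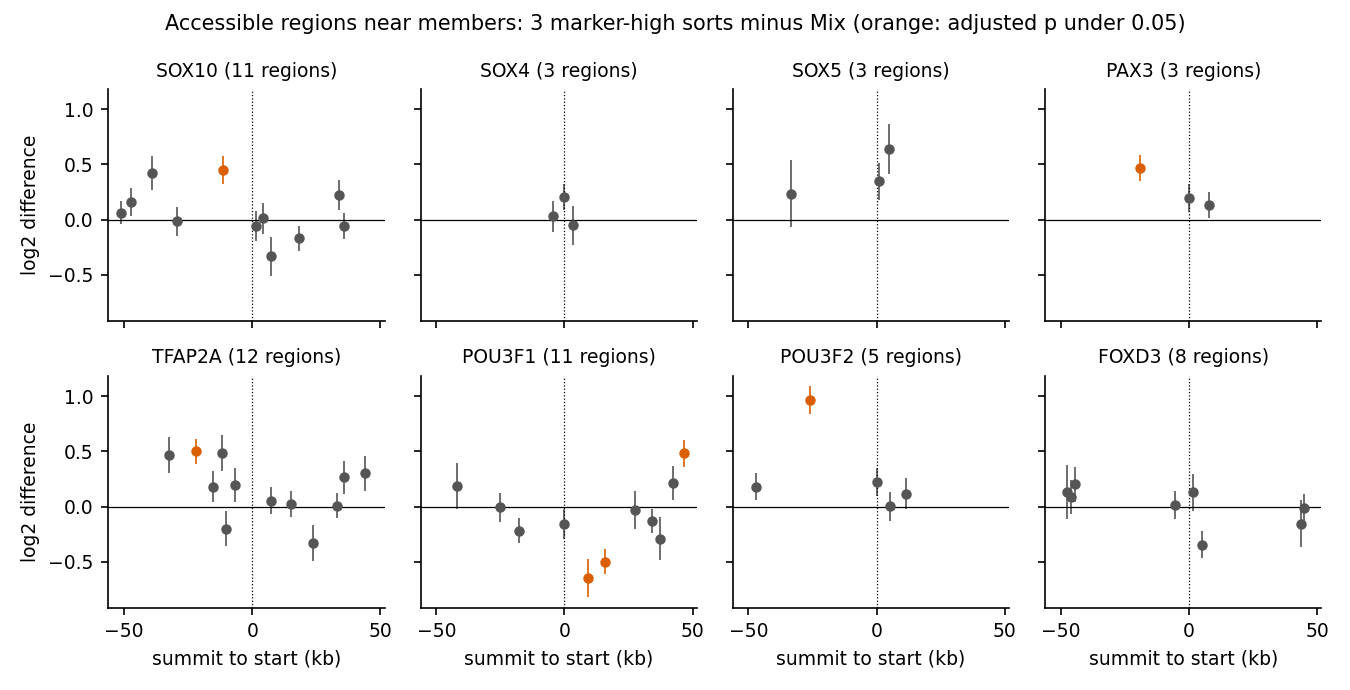
Log2 difference in ATAC enrichment of the 3 marker-high sorts minus Mix (vertical axis, with SE) for regions with a peak in all 12 libraries, by the distance of the summit from the member's start in kb, in the direction of reading. Orange points have an adjusted p under 0.05, 7 of 56, and the highest is the region upstream of POU3F2 at 0.97.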

How the data were processed

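Untreated WM989 and WM983B melanoma cells and treated WM989 cells were profiled by single-cell RNA-seq, and sorted WM989 cells by ATAC-seq. The authors deposited raw UMI counts per gene and cell from Cell Ranger (version not given in the sources used here) on hg38, with runs joined without depth normalization and cells filtered in Seurat by genes and mitochondrial share. The authors deposited ATAC peaks called in each library, with fold enrichment and −log10 q-values. Per the submitters' processing notes these used Bowtie2 2.3.4.1, SAMtools 1.1 and MACS2 2.1.1.20160309. The q-values served only in an alternative that kept peaks with a −log10 q of at least 10.

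Clusters, states and cell cycle phases were the authors' deposited annotation, and no doublet caller was run. Counts were summed per state, cluster, well and library with Python 3.11.15, numpy 2.4.6, pandas 2.3.3 and scipy 1.17.1 and divided by the population's UMIs (CPM), with 95% Poisson intervals and a floor of 3 counts. Between states, genes with at least 1 CPM in a state were called past 2-fold, with no test. To compare detection, cells were thinned to 10000 UMIs in the WM989 wells and to 5000 in the treatment experiment, leaving out shallower cells. Likeness over 11 clusters used log2(CPM + 1), and the 5 genes most like SOX10 and the 3 most like SOX9 were named, drawn from those that reached 20 CPM in a cluster.

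Library sums of the treatment experiment were tested in R 4.3.3 with edgeR 4.0.16 (filterByExpr, TMM factors of 0.934 to 1.07, quasi-likelihood, two-sided, adjusted p under 0.05, 3 residual degrees of freedom), with DESeq2 1.42.0 as an alternative. Primed libraries needed at least 20 primed cells, and their sums were 285360 to 22354563 UMIs. Replicate numbers paired the samples, since the methods tie a number to parallel plates and the deviations of same-numbered libraries correlated at r of 0.256 to 0.365. In the cell annotation replicates are r1 and r2, the sample labels name them by Mix and Primed, and the link between these was not settled.

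ATAC peaks of 12 libraries were merged, and log2 enrichment of regions with a peak in all 12, centred on each library's median, was tested with limma 3.58.1. Merged regions needed a peak in at least 3 libraries, and those reaching within 50 kb of a member's start in GENCODE 44 were assigned to it, and the one over the start and the one with the smallest adjusted p were named. Sequences were read with pysam 0.24.0. The tests were tested on simulated data with 200 changed genes. Members, gene lists and rules were chosen with earlier results of these data known. Alternatives were other scaling, filters, tools, blocks, left-out libraries and G1 cells, and the interaction test and leaving out cluster 8 were chosen after seeing the data.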

Additional observations from a re-analysis of the deposited data

Results flagged for a closer look

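SOX4 in drug-susceptible cells stood at 65.8 CPM in well 1, apart from the other 7 wells. The gap to the nearest well was 0.583 of the whole range, above Dixon's critical value at the 95% level for 8 values. That test was made on 17 groups of wells, of which chance would single out about 1 in 20.

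The log2 response to TGFB1 differed between primed and drug-susceptible cells in the interaction test of edgeR for 5 members. Primed minus drug-susceptible, the difference was -1.11 for SOX10, -0.94 for SOX5, 0.76 for SOX4, -0.73 for PAX3 and -0.44 for TFAP2A. With PI3Ki it was 1.2 for POU3F2, where the primed sums rest on 25 and 70 cells. Primed cells of the TGFB1 and Untreated libraries were mostly in different clusters, and within cluster 10 SOX10 and SOX5 were higher with TGFB1.

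Primed over drug-susceptible was 1.37-fold for SOX5, 1.34-fold for POU3F2 and 1.97-fold for FOXD3 in WM983B, while every well of WM989 had these genes lower in primed cells. The difference was not tested, since WM983B had 1 library. For POU3F2 it was not one between lines throughout, since in the Untreated WM989 libraries of the treatment experiment POU3F2 stood at 26.8 and 23.3 CPM in primed and 24.5 and 22.4 CPM in drug-susceptible cells. Over all 8 libraries of that experiment FOXD3 stood at 0.365 CPM in primed cells, from 19 UMIs, and 0.223 CPM in drug-susceptible cells. Most of these primed cells came from the TGFB1 libraries, and the Poisson interval of the primed level includes the drug-susceptible one. FOXD3 therefore does not settle this for untreated cells.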

How the results depend on the processing

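Counts of members that passed moved most with the replicate block and with single libraries. Without the replicate block they were 0 in place of 1 for TGFBRi and 1 in place of 3 for PI3Ki, each both over all cells and over drug-susceptible cells, and for TGFB1 3 in place of 4 over all cells and 2 in place of 4 in drug-susceptible cells. Leaving out the block changed no call of a member in primed cells. Leaving out 1 library gave 3 to 5 members for TGFB1 over all cells, 3 to 4 in drug-susceptible and 2 to 3 in primed cells. It gave 0 to 4 for TGFBRi, with 4 without TGFBRi r1, and 0 to 4 for PI3Ki, over all cells and over drug-susceptible cells alike. With no filter on low counts 2 members passed for TGFBRi over all cells. Between states, 3 members of WM989 passed 2-fold among genes with at least 20 CPM, against 16.9% of all such genes. In WM983B the count was 0 among such genes, against 1.98% of them. It was 2 in G1 cells (TFAP2A and POU3F1) and 2 without cluster 3 (FOXD3 and POU3F1). Of all genes 7.05% and 5.21% passed in these 2 settings. For ATAC-seq, leaving out 1 replicate gave 1 to 5 regions against Mix, and enrichment that was not centred gave 1 between EGFR-High and NGFR-High. Among member results that passed in the main or the alternative setting no direction reversed, and the cause of these moves was not tested. No alternative of the treatment tests held the cluster of the primed cells fixed.

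Over all genes tested, counts without the replicate block were 40 in place of 466 for TGFBRi and 649 in place of 2328 for PI3Ki over all cells. In drug-susceptible cells they were 1189 in place of 2665 (TGFB1), 47 in place of 503 (TGFBRi) and 570 in place of 2170 (PI3Ki). In primed cells they were 9 in place of 41 (TGFBRi) and 87 in place of 195 (PI3Ki). Leaving out 1 library moved these counts as well. Over all cells they were 3164 to 6377 for TGFB1 (5324 with all libraries), 168 to 1146 for TGFBRi and 719 to 3298 for PI3Ki. In drug-susceptible cells they were 988 to 3722, 206 to 1247 and 632 to 3286, and in primed cells 584 to 1726, 17 to 63 and 96 to 239. In all cells and in drug-susceptible cells the lowest counts came without TGFB1 r1, Untreated r2 and PI3Ki r2, in that order of treatments, and the highest came without a TGFBRi library. Without 1 ATAC replicate 4086 to 9558 regions passed against Mix, in place of 12464, and 0 in place of 540 between EGFR-High and NGFR-High, where 7380 to 10511 had an unadjusted p under 0.05. Between the latter 2192 passed with enrichment that was not centred and 817 with the replicate block. For TGFBRi 748 genes passed over all cells with no filter on low counts, and 210 in G1 drug-susceptible cells. DESeq2 called 693 in place of 1454 genes for TGFB1 and 13 in place of 41 for TGFBRi in primed cells, and 329 in place of 503 for TGFBRi in drug-susceptible cells. Replicate numbers of the ATAC libraries were not taken as pairs, since their deviations correlated at an r of 0.174 at most. Primed sums of the Untreated, TGFBRi and PI3Ki libraries were shallow, which limits what could be detected there.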
